A study of Homo sapiens with 24 samples.

Results

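The genes followed here are 29 genes of cholesterol synthesis, sterol sensing, uptake and transport, most of them known targets of the transcription factor SREBP2. They were taken by symbol from the count table, in which each was matched by its Ensembl identifier, and they make up 29 of the 14585 genes listed. By role they comprise 8 enzymes from acetyl-CoA to the isoprenoid diphosphates, 12 enzymes from squalene to the sterols, 4 regulators of SREBP processing and 5 genes of uptake and transport. The list follows known function and no cutoff on measured values, although earlier results of these libraries were known when it was drawn up.

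RNA was sequenced from the human cancer lines A549, from a lung adenocarcinoma, and Huh7, from a hepatocellular carcinoma, both of which the labels give as WT. The paper gives A549 as wild-type for p53 and Huh7 as p53-mutant. Each line was left as a control or treated with extracts of Pulsatilla chinensis, Bupleurum chinense or Polyporus umbellatus, with 3 replicates in each of the 8 groups and 24 libraries in all. The plants had been extracted in ethanol and the dried powder dissolved in DMSO, so each extract is a mixture of compounds. The dose and time of the sequenced cells, and whether control cells received DMSO, are not given in the sources used here. Nothing states that replicates came from separate cultures, so the p-values measure the spread between these samples, which may be technical.

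Cholesterol is built in the endoplasmic reticulum from acetyl-CoA, by way of mevalonate, the isoprenoid diphosphates, squalene and lanosterol. SREBP2, the product of SREBF2, sits in the same membrane bound to its escort SCAP. When sterols are scarce SCAP carries it to the Golgi apparatus, where it is cut and its active part moves to the nucleus to switch on the enzymes of the pathway and sterol uptake. When sterols are plentiful the INSIG proteins hold SCAP back, while oxysterols activate the nuclear receptor LXR, which raises the efflux pump ABCA1 and the ubiquitin ligase MYLIP. Hepatocytes make much of the body's cholesterol, and Huh7 cells derive from them.

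The promoters of the members were searched for a sterol regulatory element of the letters TCACNCCA and for the CCAAT box, which binds NF-Y, a partner of SREBP2. The windows were the 250 bases before the RefSeq start of transcription in GRCh38.p14, read on both strands. A CCAAT box can share the CCA of TCACNCCA, and in none of the windows below did the motifs overlap. The table held 26 of the 29 members, and ACAT2, FDFT1 and SQLE had no entry. TCACNCCA occurred in 3 of the 26 members (11.54%) and in 3.2% of all 35116 promoters, and CCAAT in 17 of the 26 (65.38%) and in 32.01% of all promoters. Each member was counted with a single promoter. The shares of all promoters cover every entry and were not limited to the genes counted here, so the sets are not alike. The 3 matches to TCACNCCA are shown because they lie in front of an early enzyme, a late enzyme and the SREBP2 gene itself, with the motif in capitals, 5′ to 3′. They are at chr12:109573579-109573626, chr4:165327493-165327540 and chr22:41832952-41832999, all on the plus strand, with 187, 148 and 125 bases between the motif and the start. They carry letters only, and binding was not measured.
MVK: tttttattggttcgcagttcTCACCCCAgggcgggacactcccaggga
MSMO1: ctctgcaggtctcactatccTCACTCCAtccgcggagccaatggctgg
SREBF2: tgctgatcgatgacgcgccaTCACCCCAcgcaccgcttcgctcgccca

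The libraries summed to between 6803704 and 24345541 counts. In Huh7 the controls held 16455709 to 24345541 counts, whereas the B. chinense libraries held 9526159 to 11546100 and the P. umbellatus libraries 7182444 to 10328734, so depth differed with the group there. Replicate 2 of the P. umbellatus group in Huh7 stood apart. Its squared differences from its replicates, scaled by expected counts, had medians 13.3 and 17.6 times that of sampling noise. For every other pair of replicates this ratio was 2.74 to 5.36. Hepatocyte markers, summed over 6 genes, came to 6850 to 10000 CPM (counts scaled to a common library size) in Huh7 and to 23 to 36.9 in A549, where AFP stayed at 3 counts or less in each group. Of 5 lung alveolar markers only SFTPB was in the table, at 1.05 to 2.75 CPM in A549, so the lung label had little support from alveolar genes, while 5 epithelial markers summed to 6790 to 8010 CPM there. In Huh7 KRT7 stayed at 3 counts or less. Summed immune, fibroblast and endothelial markers did not exceed 43.6, 27.3 and 55.9 CPM in any library. Marker sums are CPM after TMM normalization over all 24 libraries, and member values by library are CPM after TMM normalization within a line. In bulk RNA fewer cells and less RNA per cell cannot be told apart.

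In Huh7 cells the members made up 0.562% ± 0.00313 (SD, n = 3) of all counts in controls, 0.347% ± 0.00475 under P. chinensis, 0.476% ± 0.0153 under B. chinense and 0.424% ± 0.0224 under P. umbellatus. The 3 libraries of each herb lay below the 3 controls. In A549 cells the share was 0.206% ± 0.00144 in controls, 0.227% ± 0.00554 under P. chinensis, 0.203% ± 0.0108 under B. chinense and 0.197% ± 0.00936 under P. umbellatus. There the P. chinensis libraries lay above the controls, and the ranges of B. chinense and P. umbellatus overlapped those of the controls.

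With P. chinensis, 22 of the 29 members fell in Huh7 and 0 rose, against a background of 10.5% of the 13875 genes tested in each direction (edgeR's quasi-likelihood test, two-sided, Benjamini-Hochberg adjusted p below 0.05 over all genes tested). Without any one of the libraries compared, 18 to 19 members were called lower. The median log2 fold change over the members was −0.68. All 3 libraries lay below all 3 controls for 25 members, against 26.6% of all genes tested. The same extract in A549 raised 8 and lowered 5 of the 28 members tested, where 15.8% of 13633 genes rose and 17.1% fell, with a median of 0.10.

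**Figure D1:**
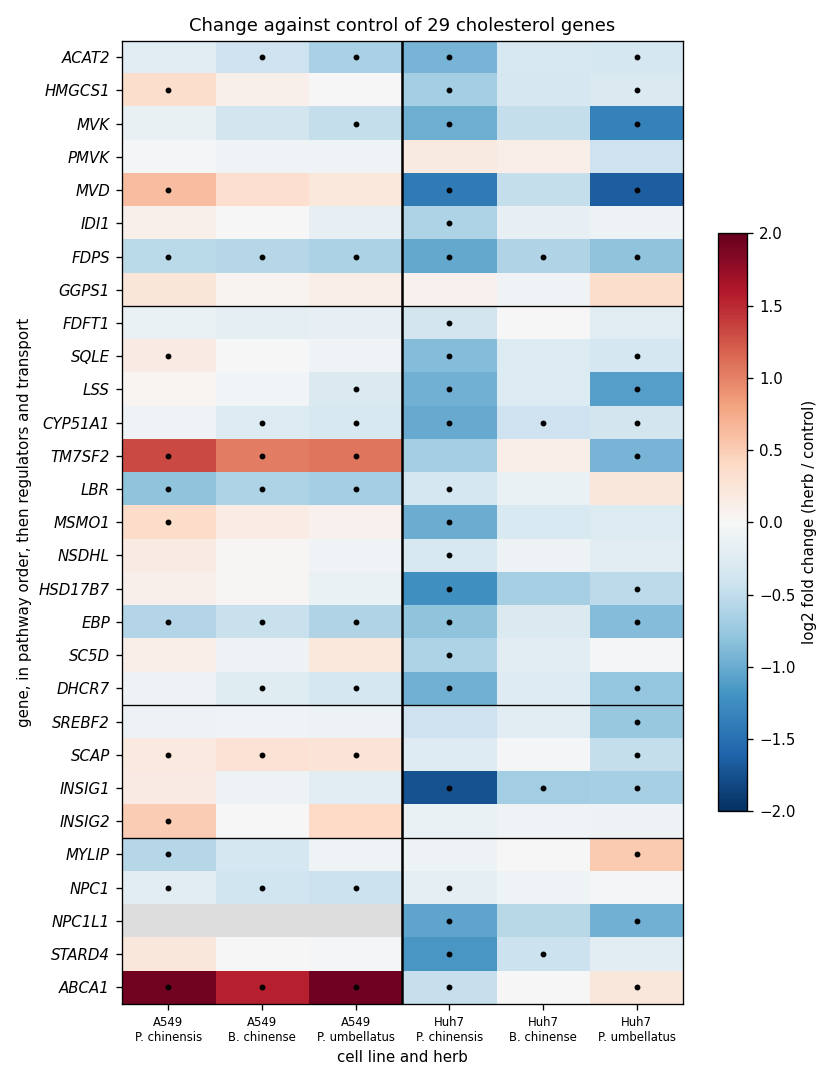
Log2 fold change of each of the 29 genes (rows, in pathway order, then regulators and transport) against control for 3 herbs in A549 and Huh7 (columns), on a colour scale from −2 to 2, with a dot where the adjusted p was below 0.05 and grey where a gene was not tested. The Huh7 P. chinensis column is blue for 27 of 29 genes, while A549 columns hold both colours.

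Along the mevalonate enzymes, 6 of 8 fell in Huh7 with P. chinensis, and PMVK and GGPS1 did not pass the test. ACAT2, the cytosolic thiolase that joins acetyl-CoA units in the opening step, measured 224, 216 and 214 CPM in Huh7 controls, 118, 114 and 113 under P. chinensis, 188, 167 and 171 under B. chinense and 146, 200 and 166 under P. umbellatus. Every treated library lay below every control. It fell by 0.92 on the log2 scale with P. chinensis (SE 0.10, adjusted p = 4.26e-05) and by 0.36 with P. umbellatus (SE 0.10, adjusted p = 0.0148), while the change with B. chinense was −0.31 (SE 0.10, adjusted p = 0.171).

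In A549 the order of the herbs for ACAT2 differed. It measured 46.1, 43.1 and 45.1 CPM in controls, 33.7, 39.8 and 40.9 under P. chinensis, 33.0, 38.2 and 28.8 under B. chinense and 31.5, 29.1 and 24.2 under P. umbellatus. It fell by 0.42 with B. chinense (SE 0.12, adjusted p = 0.017) and by 0.65 with P. umbellatus (SE 0.12, adjusted p = 0.000827), and its change with P. chinensis was −0.23 (SE 0.12, adjusted p = 0.158). The call with B. chinense was lost without replicate 1 (adjusted p = 0.0501) or replicate 3 (adjusted p = 0.068) of that group.

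HMGCS1, HMG-CoA synthase, and MVD, mevalonate diphosphate decarboxylase, moved in opposite directions in the lines with P. chinensis, and their library values are given because of what they showed. HMGCS1 measured 911, 887 and 879 CPM in Huh7 controls and 567, 553 and 551 with P. chinensis, a fall to 62.4% of control. In A549 it measured 239, 230 and 216 CPM in controls and 287, 286 and 301 with P. chinensis, a rise to 127.7%. The ranges did not overlap in either line.

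MVD measured 155, 147 and 153 CPM in Huh7 controls, 56.8, 55.8 and 57.1 under P. chinensis, 121, 95.7 and 110 under B. chinense and 48.5, 27.5 and 66.6 under P. umbellatus. Its fall with P. chinensis was to 37.4% of control (adjusted p = 0.000472). The fall with P. umbellatus was to 31.7% (log2 −1.66, SE 0.21, adjusted p = 0.000542), with replicate 2 the lowest library, and was −1.39 on the log2 scale without that library (adjusted p = 2.19e-05). In A549 MVD measured 14.2, 17.8 and 19.1 CPM in controls and 25.9, 26.2 and 27.1 with P. chinensis, a log2 change of 0.62 (SE 0.13, adjusted p = 0.00235).

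MVK, mevalonate kinase, fell in Huh7 by 0.97 with P. chinensis (SE 0.16, adjusted p = 0.00126) and by 1.35 with P. umbellatus (SE 0.17, adjusted p = 0.000514). In A549 it fell with P. umbellatus (−0.47, SE 0.13, adjusted p = 0.0161), a call lost without control replicate 1 (adjusted p = 0.0524) or 3 (adjusted p = 0.0778). IDI1, the isomerase that makes the reactive isoprenoid unit, fell only in the P. chinensis group of Huh7 among the 6 comparisons that were run (−0.62, SE 0.11, adjusted p = 0.00156). PMVK, the next kinase after MVK, and GGPS1, which draws off farnesyl diphosphate into the geranylgeranyl branch, passed the test in none of the 6 comparisons with control, and their log2 changes ran from −0.42 to 0.18 and from −0.07 to 0.36.

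FDPS, farnesyl diphosphate synthase, was called lower in all 6 comparisons of a herb with control. In Huh7 it measured 160, 154 and 152 CPM in controls, 76.9, 75.9 and 76.5 under P. chinensis, 104, 92.3 and 111 under B. chinense and 84.9, 76.6 and 103 under P. umbellatus. In A549 it measured 65.7, 59.5 and 61.4 CPM in controls, 37.3, 48.0 and 42.9 under P. chinensis, 46.3, 38.2 and 41.4 under B. chinense and 41.7, 35.2 and 43.5 under P. umbellatus. All 18 treated libraries lay below the controls of their line.

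The falls of FDPS in Huh7 were −1.02 (SE 0.10, adjusted p = 2.33e-05), −0.59 (SE 0.10, adjusted p = 0.0114) and −0.81 (SE 0.10, adjusted p = 0.000486) on the log2 scale, in the order P. chinensis, B. chinense, P. umbellatus. In A549 they were −0.54 (adjusted p = 0.0013), −0.56 (adjusted p = 0.00123) and −0.63 (adjusted p = 0.000442), each with an SE of 0.11. FDPS (ENSG00000160752) lies at chr1:155308748-155320666 in the GRCh38 annotation of GENCODE, which names 8 pseudogenes after it, so its counts are less certain than those of a single-copy gene. The call with B. chinense in Huh7 was lost without B. chinense replicate 1 or 2 or any one control (adjusted p = 0.0594 to 0.0741). The 6 comparisons share 3 controls in each line.

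Of the 12 enzymes from squalene to the sterols, 11 fell in Huh7 with P. chinensis, 1 under B. chinense and 7 under P. umbellatus, and 0 rose with any herb. Of all genes, 10.5%, 0.757% and 17.8% fell there. In A549, 3 rose and 2 fell with P. chinensis (15.8% and 17.1% of all genes), 1 rose and 4 fell with B. chinense (13.1% and 15.0%), and 1 rose and 5 fell with P. umbellatus (13.4% and 14.8%). The 2 of 12 that fell in A549 with P. chinensis were close to that background.

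SQLE, squalene epoxidase, measured 192, 190 and 201 CPM in Huh7 controls, 112, 102 and 104 under P. chinensis, 160, 153 and 168 under B. chinense and 148, 162 and 146 under P. umbellatus. It fell by 0.87 with P. chinensis (SE 0.07, adjusted p = 4.76e-06) and by 0.36 with P. umbellatus (SE 0.07, adjusted p = 0.00304). With B. chinense its 3 libraries also lay below the controls, and the change of −0.28 did not pass the test (SE 0.07, adjusted p = 0.0757).

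In A549 SQLE measured 168, 163 and 158 CPM in controls, 165, 184 and 199 under P. chinensis, 166, 165 and 161 under B. chinense and 152, 158 and 155 under P. umbellatus. Its rise with P. chinensis was small (0.17, SE 0.06, adjusted p = 0.043) and the groups overlapped. The call was lost without P. chinensis replicate 2 (adjusted p = 0.08) or 3 (adjusted p = 0.204), and without control replicate 2 (adjusted p = 0.0932) or 3 (adjusted p = 0.131).

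CYP51A1, the lanosterol demethylase, measured 633, 637 and 641 CPM in Huh7 controls, 320, 317 and 311 under P. chinensis, 473, 474 and 488 under B. chinense and 461, 554 and 465 under P. umbellatus. It fell with all 3 herbs there, to 49.6% (adjusted p = 1.81e-06), 75.2% (adjusted p = 0.0114) and 77.5% (adjusted p = 0.0027) of control. The call with B. chinense was lost without B. chinense replicate 1 or 2 or any one control (adjusted p = 0.05 to 0.0703). In A549 it measured 192, 193 and 174 CPM in controls, 170, 176 and 185 under P. chinensis, 166, 148 and 150 under B. chinense and 146, 161 and 139 under P. umbellatus. It fell with B. chinense (−0.27, SE 0.07, adjusted p = 0.00774) and P. umbellatus (−0.32, SE 0.07, adjusted p = 0.00214), and P. chinensis overlapped the controls (−0.07, SE 0.07, adjusted p = 0.451). CYP51A1 shares exon bases with other annotated protein-coding genes on both strands and has 3 pseudogenes named after it.

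TM7SF2 and LBR are the alternative sterol reductases of the step after demethylation, and in A549 they moved in opposite directions under all 3 herbs. TM7SF2 measured 5.7, 5.02 and 6.94 CPM in A549 controls, 16.5, 16 and 12.6 under P. chinensis, 13.1, 14.7 and 8.33 under B. chinense and 13.2, 12.3 and 12.2 under P. umbellatus. LBR, which also anchors chromatin at the nuclear envelope, measured 204, 191 and 193 CPM in controls, 119, 107 and 109 under P. chinensis, 143, 109 and 131 under B. chinense and 114, 133 and 122 under P. umbellatus. No treated library of A549 overlapped the controls for either gene.

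The rises of TM7SF2 in A549 were 1.32 (SE 0.20, adjusted p = 0.00018), 1.02 (SE 0.21, adjusted p = 0.00204) and 1.07 (SE 0.20, adjusted p = 0.00124) on the log2 scale. The falls of LBR were −0.81 (adjusted p = 5.32e-06), −0.62 (adjusted p = 9.2e-05) and −0.67 (adjusted p = 3.76e-05), each with an SE of 0.09. TM7SF2 overlaps exons of the protein-coding gene VPS51 on the same strand, so reads may have been shared between them.

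In Huh7 TM7SF2 measured 14.4, 15.7 and 15.8 CPM in controls, 11.2, 9.33 and 7.85 under P. chinensis, 20.8, 15 and 14.9 under B. chinense and 9.89, 3.46 and 10.1 under P. umbellatus. Its P. chinensis libraries lay below the controls, with an unadjusted p below 0.05 in edgeR's test but no call after adjustment. TM7SF2 fell with P. umbellatus (−0.93, SE 0.29, adjusted p = 0.0251), with replicate 2 far the lowest, and by −0.61 without that library (adjusted p = 0.0254). That call was lost without any one control (adjusted p = 0.0504 to 0.0656). LBR measured 193, 210 and 199 CPM in controls, 164, 156 and 151 under P. chinensis, 182, 182 and 188 under B. chinense and 205, 288 and 212 under P. umbellatus. Its fall with P. chinensis (−0.36, SE 0.11, adjusted p = 0.0337) was lost without any one library of those groups (adjusted p = 0.0504 to 0.114).

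EBP, the sterol isomerase, measured 326, 342 and 346 CPM in Huh7 controls, 196, 196 and 191 under P. chinensis, 282, 261 and 291 under B. chinense and 168, 158 and 228 under P. umbellatus. In A549 it measured 77.7, 84.8 and 88.5 CPM in controls, 60.6, 53.9 and 52.7 under P. chinensis, 60.0, 61.5 and 63.7 under B. chinense and 54.1, 50.8 and 61.6 under P. umbellatus. It was lower than every control in all treated libraries of both lines. The test called it in all comparisons with control except that of B. chinense in Huh7 (−0.28, SE 0.11, adjusted p = 0.292), with falls to 57.5% and 54.7% of control in Huh7 and to between 66.2% and 73.7% in A549. EBP overlaps exons of the protein-coding gene ENSG00000286268 on the same strand, so its reads may have been shared too.

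DHCR7, the reductase of the last step of one branch, measured 459, 462 and 461 CPM in Huh7 controls, 240, 234 and 239 under P. chinensis, 406, 351 and 395 under B. chinense and 276, 215 and 315 under P. umbellatus. It fell to 51.6% (adjusted p = 8.29e-05) with P. chinensis and to 58.4% (adjusted p = 0.000808) with P. umbellatus. In A549 it measured 137, 135 and 145 CPM in controls, 128, 135 and 125 under P. chinensis, 120, 122 and 112 under B. chinense and 101, 119 and 109 under P. umbellatus. The falls with B. chinense (−0.24, SE 0.06, adjusted p = 0.0123) and P. umbellatus (−0.34, SE 0.06, adjusted p = 0.000912) passed, the former not without control replicate 3 (adjusted p = 0.0521).

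Among the remaining enzymes, LSS, which closes the sterol rings, fell in Huh7 with P. chinensis (−0.96, SE 0.14, adjusted p = 0.000379) and P. umbellatus (−1.10, SE 0.14, adjusted p = 0.000514). MSMO1, the methyl oxidase, fell in Huh7 with P. chinensis (−0.99, SE 0.12, adjusted p = 0.000147) and rose with it in A549 (0.37, SE 0.08, adjusted p = 0.00327). HSD17B7, a ketone reductase of the same demethylation, had the largest fall of the enzymes from squalene on with P. chinensis in Huh7 (−1.23, SE 0.17, adjusted p = 0.00026), from 13.3 to 16 CPM in controls to 4.96 to 7.27. It also fell with P. umbellatus in Huh7 (−0.53, SE 0.17, adjusted p = 0.0284).

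SC5D, the desaturase ahead of DHCR7, fell in Huh7 with P. chinensis alone among the comparisons with control (−0.61, SE 0.09, adjusted p = 0.000617). FDFT1, squalene synthase (−0.36, SE 0.10, adjusted p = 0.018), and NSDHL, the dehydrogenase that works with MSMO1 (−0.32, SE 0.09, adjusted p = 0.0247), fell less in that group. The FDFT1 call was lost without P. chinensis replicate 1 or 3 or control replicate 1 or 3 (adjusted p = 0.0621 to 0.0776), and the NSDHL call without P. chinensis replicate 1 or 2 or any one control (adjusted p = 0.0591 to 0.0847). In A549 LSS fell with P. umbellatus (−0.28, SE 0.08, adjusted p = 0.0198), a call lost without P. umbellatus replicate 3 (adjusted p = 0.0707) or control replicate 2 (adjusted p = 0.0717) or 3 (adjusted p = 0.0953).

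**Figure D2:**
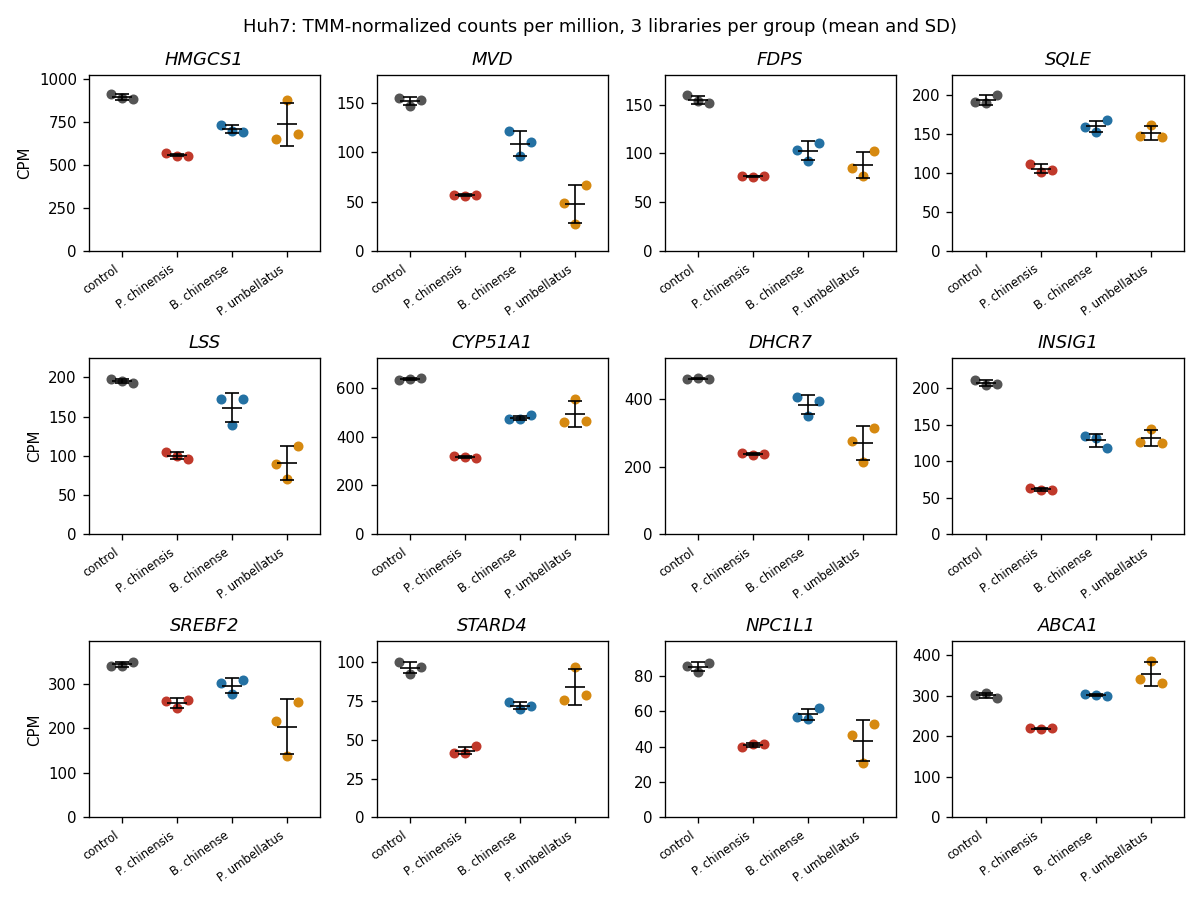
TMM-normalized CPM (y axes from 0) of 12 members in each Huh7 library, 3 points per group with the mean and SD in black. The P. chinensis points lie below the control points in every panel, and in the P. umbellatus group replicate 2, the middle point, is the highest of its group for HMGCS1 (877 CPM) and the lowest for MVD (27.5) and SREBF2 (137).

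Of the 4 regulators, only INSIG1 was called lower in Huh7 with P. chinensis. SREBF2 and SCAP did not pass the test there, although their P. chinensis libraries lay below all controls. INSIG1 (ENSG00000186480, chr7:155297776-155310235), which retains SCAP in the endoplasmic reticulum and is itself a known SREBP target, measured 212, 204 and 206 CPM in Huh7 controls, 64.0, 60.4 and 60.8 under P. chinensis, 134, 132 and 118 under B. chinense and 126, 144 and 125 under P. umbellatus. The groups of herb and control did not overlap for any herb. Its fall to 29.8% of control with P. chinensis (log2 −1.75, SE 0.08, adjusted p = 7.56e-08) was the largest of the 29 members. The falls with B. chinense (−0.69, SE 0.08, adjusted p = 0.00127) and P. umbellatus (−0.66, SE 0.08, adjusted p = 0.000321) were to 61.9% and 63.3%.

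In A549 INSIG1 measured 60.3, 50.5 and 55.4 CPM in controls, 59.0, 57.6 and 69.0 under P. chinensis, 54.9, 52.7 and 46.5 under B. chinense and 45.9, 46.5 and 49.4 under P. umbellatus. None of the log2 changes passed the test, at 0.16 (SE 0.09, adjusted p = 0.2), −0.10 (SE 0.09, adjusted p = 0.464) and −0.23 (SE 0.09, adjusted p = 0.0823). INSIG2, its paralog, rose in A549 with P. chinensis (0.51, SE 0.19, adjusted p = 0.0475), a call lost without P. chinensis replicate 2 (adjusted p = 0.0864) or 3 (adjusted p = 0.184) or control replicate 3 (adjusted p = 0.182). In Huh7 its changes lay between −0.13 and −0.06 and none passed the test.

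SREBF2 measured 341, 340 and 349 CPM in Huh7 controls, 261, 245 and 264 under P. chinensis, 302, 277 and 309 under B. chinense and 216, 137 and 258 under P. umbellatus. All treated libraries lay below the controls. The test shares its estimate of spread among the groups of a line. The SD was 61.3 CPM under P. umbellatus, against 5.08 in controls, 10.3 under P. chinensis and 16.55 under B. chinense. Leaving P. umbellatus replicate 2 out of the fit lowered the adjusted p of all 4 members called with B. chinense. It was then 0.000699 for FDPS and 3.8e-05 for CYP51A1. How far the SE of SREBF2 with the other herbs changed is not given here. The fall with P. umbellatus passed the test (−0.75, SE 0.16, adjusted p = 0.00486, and −0.54 without replicate 2, adjusted p = 0.00025), whereas the change with P. chinensis (−0.42, SE 0.16, adjusted p = 0.0831) and B. chinense (−0.21, SE 0.16, adjusted p = 0.679) did not. In A549 it measured 153, 162 and 171 CPM in controls, 156, 155 and 137 under P. chinensis, 164, 149 and 145 under B. chinense and 141, 162 and 151 under P. umbellatus, with overlap in each case and changes from −0.12 to −0.08.

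SCAP measured 71.4, 62.8 and 66.9 CPM in A549 controls, 74.6, 77.6 and 78.2 under P. chinensis, 86.3, 77.3 and 81.3 under B. chinense and 77.3, 82.3 and 81.7 under P. umbellatus. It rose with all 3 herbs, by 0.20 (SE 0.07, adjusted p = 0.0322), 0.29 (SE 0.07, adjusted p = 0.0048) and 0.26 (SE 0.07, adjusted p = 0.00765) on the log2 scale, with no overlap between herb and control. The call with P. chinensis was lost without P. chinensis replicate 2 or 3 or control replicate 2 or 3 (adjusted p = 0.0699 to 0.135).

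In Huh7 SCAP measured 178, 163 and 156 CPM in controls, 138, 142 and 135 under P. chinensis, 167, 159 and 155 under B. chinense and 129, 85.6 and 143 under P. umbellatus. It fell with P. umbellatus (−0.47, SE 0.14, adjusted p = 0.0211), by −0.28 without replicate 2 (adjusted p = 0.00636), and that call was lost without control replicate 1 (adjusted p = 0.0718). The P. chinensis libraries were below the controls without passing the test (−0.26, SE 0.14, adjusted p = 0.209).

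Among the uptake and transport genes, 4 of 5 fell in Huh7 with P. chinensis. NPC1L1, the sterol importer of the cell surface, was in effect a Huh7 gene: in A549 its counts were 2, 1 and 2 in controls and 0 to 15 over the 12 libraries, and it was not tested there. Its library values are given because of this, although its highest count was above the limit of 3 set for naming such genes. In Huh7 it measured 85.5, 82.2 and 87.3 CPM in controls, 39.7, 41.5 and 41.3 under P. chinensis, 56.9, 55.5 and 61.9 under B. chinense and 46.3, 30.5 and 53.0 under P. umbellatus. It fell with P. chinensis (−1.06, SE 0.14, adjusted p = 0.000253) and P. umbellatus (−0.96, SE 0.14, adjusted p = 0.00105), and its change with B. chinense was −0.55 (SE 0.14, adjusted p = 0.0918) with no overlap.

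STARD4, which carries cholesterol between membranes, fell in Huh7 to 44.5% of control with P. chinensis (adjusted p = 4.79e-06), from 92.8 to 100 CPM in controls to 41.5 to 45.8. With B. chinense it fell to 74.7% (adjusted p = 0.0457), a call lost without any one of the libraries compared (adjusted p = 0.102 to 0.185), with upper quartile factors (adjusted p = 0.0574) and with the replicate block (adjusted p = 0.0992). NPC1, which releases cholesterol from lysosomes, measured 195, 201 and 215 CPM in A549 controls, 182, 166 and 180 under P. chinensis, 152, 156 and 157 under B. chinense and 146, 164 and 147 under P. umbellatus. It fell with all 3 herbs there, by −0.21 (SE 0.06, adjusted p = 0.0109), −0.39 (SE 0.06, adjusted p = 0.000158) and −0.42 (SE 0.06, adjusted p = 7.56e-05), the first a call lost without P. chinensis replicate 2 (adjusted p = 0.0656) or control replicate 3 (adjusted p = 0.0556).

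In Huh7 NPC1 measured 143, 147 and 150 CPM in controls, 132, 132 and 120 under P. chinensis, 141, 139 and 137 under B. chinense and 152, 139 and 144 under P. umbellatus. The fall with P. chinensis (−0.19, SE 0.06, adjusted p = 0.048) was lost without any one of the libraries compared (adjusted p = 0.0624 to 0.194). NPC1 overlaps exon bases of the protein-coding gene RMC1 on the other strand. The strand setting of the counting is not given in the sources used here, although the kit marks strand. The same holds for ACAT2, MVK, GGPS1 and CYP51A1, which overlap exons of other protein-coding genes on the opposite strand.

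ABCA1 (ENSG00000165029, chr9:104781006-104928155), the LXR-driven pump that exports cholesterol, showed the largest change of any member in A549. It measured 48.6, 43.7 and 45.2 CPM in A549 controls, 174, 163 and 186 under P. chinensis, 154, 132 and 116 under B. chinense and 157, 193 and 184 under P. umbellatus. Every treated library was at least 116 CPM and every control at most 48.6. The rises were 3.80-fold (log2 1.93, SE 0.10, adjusted p = 5.73e-09), 2.92-fold (1.55, SE 0.10, adjusted p = 1.22e-07) and 3.87-fold (1.95, SE 0.10, adjusted p = 1.7e-08).

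In Huh7 ABCA1 measured 301, 306 and 294 CPM in controls, 219, 217 and 219 under P. chinensis, 303, 301 and 299 under B. chinense and 341, 386 and 330 under P. umbellatus. It fell with P. chinensis (−0.46, SE 0.06, adjusted p = 0.000316), lay within the controls' range with B. chinense (0.00, SE 0.06, adjusted p = 0.996) and rose with P. umbellatus (0.23, SE 0.06, adjusted p = 0.016). That rise was lost without control replicate 2 (adjusted p = 0.054) or 3 (adjusted p = 0.0617) and was 0.16 without P. umbellatus replicate 2 (adjusted p = 0.00834).

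MYLIP, the LXR-driven ligase that degrades lipoprotein receptors, rose in Huh7 with P. umbellatus (0.52, SE 0.11, adjusted p = 0.00549), from 13.9 to 17 CPM in controls to 20.5 to 23.2. It fell in A549 with P. chinensis (−0.57, SE 0.18, adjusted p = 0.0266), a call lost without P. chinensis replicate 1 (adjusted p = 0.106) or control replicate 2 (adjusted p = 0.0973) or 3 (adjusted p = 0.054). ABCA1 and MYLIP, both known LXR targets, thus moved in opposite directions in A549 with P. chinensis.

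**Figure D3:**
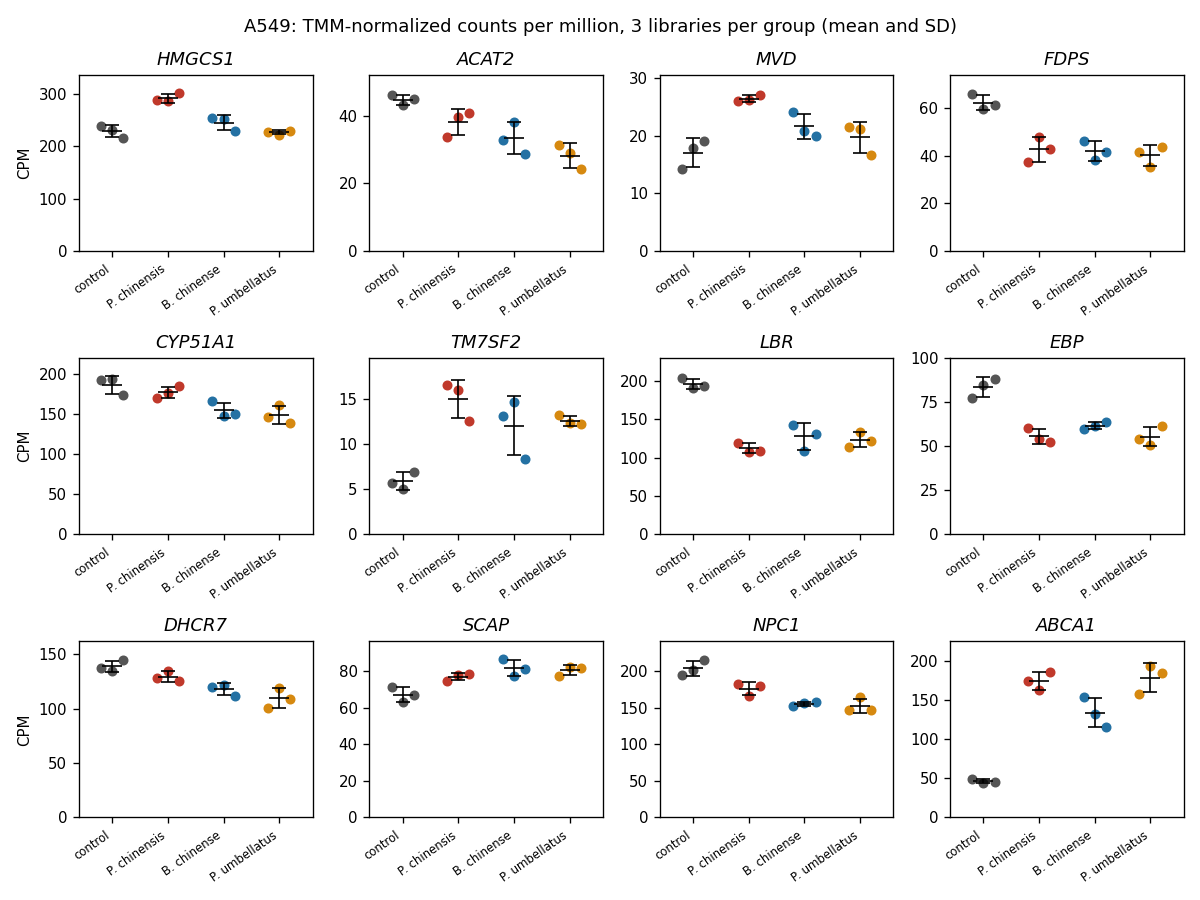
TMM-normalized CPM (y axes from 0) of 12 members in each A549 library, 3 points per group with the mean and SD in black. ABCA1 and TM7SF2 lie above the controls and FDPS, LBR, EBP and NPC1 below them in all treated libraries.

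B. chinense had the fewest called members in Huh7 in the main fit. It lowered 4 of 29 (FDPS, CYP51A1, INSIG1 and STARD4) and raised 0, where 0.757% of all genes fell and 0.519% rose, with a median of −0.26. All 3 libraries lay below the controls for 21 members, against 15.4% of all genes. The count of members lowered was 14 when P. umbellatus replicate 2 was left out of the fit. It was 17, above that of P. umbellatus fitted likewise, when only control and B. chinense libraries were fitted. It was 1 without B. chinense replicate 1 or 2 or without any one control, and INSIG1 then held its call, the adjusted p of the other 3 being 0.05 to 0.185.

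P. umbellatus lowered 16 and raised 2 of 29 members in Huh7, where 17.8% of all genes fell and 19.3% rose, with a median of −0.36. All 3 libraries lay below the controls for 18 members, against 23.6% of all genes. Without replicate 2 the counts were 20 and 2 and the median −0.43, and without control replicates 1, 2 and 3 in turn 12, 13 and 14 members were lower. The rise count was 4 without P. umbellatus replicate 1 or 3, and 1 without control replicate 2 or 3. HMGCS1 fell by −0.28 (SE 0.09, adjusted p = 0.0323) in this group, a call lost without P. umbellatus replicate 1 or 3 or any one control (adjusted p = 0.0502 to 0.0977). The HSD17B7 call was lost without P. umbellatus replicate 1 (adjusted p = 0.0861) or control replicate 1 (adjusted p = 0.101) or 2 (adjusted p = 0.0507).

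In A549 B. chinense raised 3 and lowered 7 of 28 members, where 13.1% of all genes rose and 15.0% fell, and P. umbellatus raised 3 and lowered 9, where 13.4% rose and 14.8% fell. The members raised were TM7SF2, SCAP and ABCA1 with both herbs. The medians were −0.06 and −0.10. With P. chinensis the counts in A549 were 5 higher without P. chinensis replicate 2 or control replicate 3, and 3 lower without control replicate 3.

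The herbs were also compared directly. In Huh7, P. chinensis was lower than B. chinense for 17 members and higher for 0, against 3.91% of all genes lower. INSIG1 (−1.06, SE 0.08, adjusted p = 2.5e-05), MVD (−0.94, SE 0.21, adjusted p = 0.0163) and STARD4 (−0.75, SE 0.09, adjusted p = 0.000501) differed most among the members that passed. TM7SF2 lay between the last pair without passing the test (−0.82, SE 0.28, adjusted p = 0.0986). The MVD call was lost without any one P. chinensis library or B. chinense replicate 1 or 3 (adjusted p = 0.0566 to 0.0719). The count was 8 to 10 without any one P. chinensis library or without B. chinense replicate 1 or 3.

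P. chinensis was lower than P. umbellatus for 13 members and higher for 1 in Huh7, against 18.8% of all genes lower and 16.5% higher. INSIG1 (−1.09, SE 0.08, adjusted p = 2.04e-05) and STARD4 (−0.96, SE 0.09, adjusted p = 0.000121) led the former, and PMVK was the latter (0.59, SE 0.16, adjusted p = 0.015, and 0.0619 without P. chinensis replicate 3). The higher count was 0 without P. chinensis replicate 3, 2 without P. umbellatus replicate 1 and 6 without P. umbellatus replicate 3.

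B. chinense was higher than P. umbellatus for 9 members and lower for 4 in Huh7, against 12.6% of all genes higher and 14.6% lower. The higher members included MVD (1.18, SE 0.21, adjusted p = 0.00806), TM7SF2 (1.08, SE 0.29, adjusted p = 0.0213), MVK (0.87, SE 0.17, adjusted p = 0.00945) and LSS (0.83, SE 0.14, adjusted p = 0.00693), and the lower ones were GGPS1, LBR, MYLIP and ABCA1. Without P. umbellatus replicate 2 the counts were 8 and 3. Without B. chinense replicate 1 they were 5 and 1, TM7SF2 losing its call (adjusted p = 0.075), and the lower count was 1 without B. chinense replicate 2 and 0 without replicate 3.

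In A549 fewer members were called between herbs than in Huh7. At an unadjusted p below 0.05 with edgeR, P. chinensis was higher than B. chinense for 10 members and lower for 1. Against P. umbellatus these counts were 13 and 1. The shares of all genes at that level are not given here. After adjustment P. chinensis was higher than B. chinense for HMGCS1 alone (0.25, SE 0.05, adjusted p = 0.0284), against 0.447% of all genes higher. It was higher than P. umbellatus for 4 members, against 0.814% of all genes: HMGCS1 (0.37, SE 0.05, adjusted p = 0.00216), INSIG1 (0.39, SE 0.09, adjusted p = 0.0353), SQLE (0.24, SE 0.06, adjusted p = 0.0435) and LSS (0.33, SE 0.08, adjusted p = 0.049). B. chinense against P. umbellatus gave 0 calls with edgeR, with 2 members higher and 3 lower at an unadjusted p below 0.05, and 1 lower with DESeq2. The count against B. chinense was 0 without P. chinensis replicate 1 or 3 or B. chinense replicate 2 or 3 and 2 without B. chinense replicate 1. The count against P. umbellatus was 2 without P. chinensis replicate 1 or 2 and 1 without P. chinensis replicate 3 or P. umbellatus replicate 1 or 3.

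Whether the lines answered differently was tested as an interaction over all 24 libraries, on the 28 members tested in both lines. The change with P. chinensis was higher in A549 than in Huh7 for 20 members and lower for 0, against 10.3% of all 12924 genes higher. By role these were 15 of 20 enzymes, 3 of 4 regulators and 2 of 4 transport genes. The differences were widest for ABCA1 (2.44, SE 0.12, adjusted p = 1.81e-11), MVD (2.09, SE 0.27, adjusted p = 7.11e-06), TM7SF2 (2.05, SE 0.36, adjusted p = 0.000297) and INSIG1 (1.96, SE 0.12, adjusted p = 1.89e-10) on the log2 scale. The higher count was 17 to 20 when 1 of the 12 libraries was left out. The calls of SCAP (0.51, lost in 7 of 21 alternatives, adjusted p up to 0.0927) and INSIG2 (0.70, lost in 9 of 21, up to 0.133) were the least stable, and that of FDPS was lost without A549 P. chinensis replicate 2 (adjusted p = 0.053). The lower count was 1 without Huh7 P. chinensis replicate 3 or Huh7 control replicate 2, and 1 without Huh7 P. umbellatus replicate 2.

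**Figure D4:**
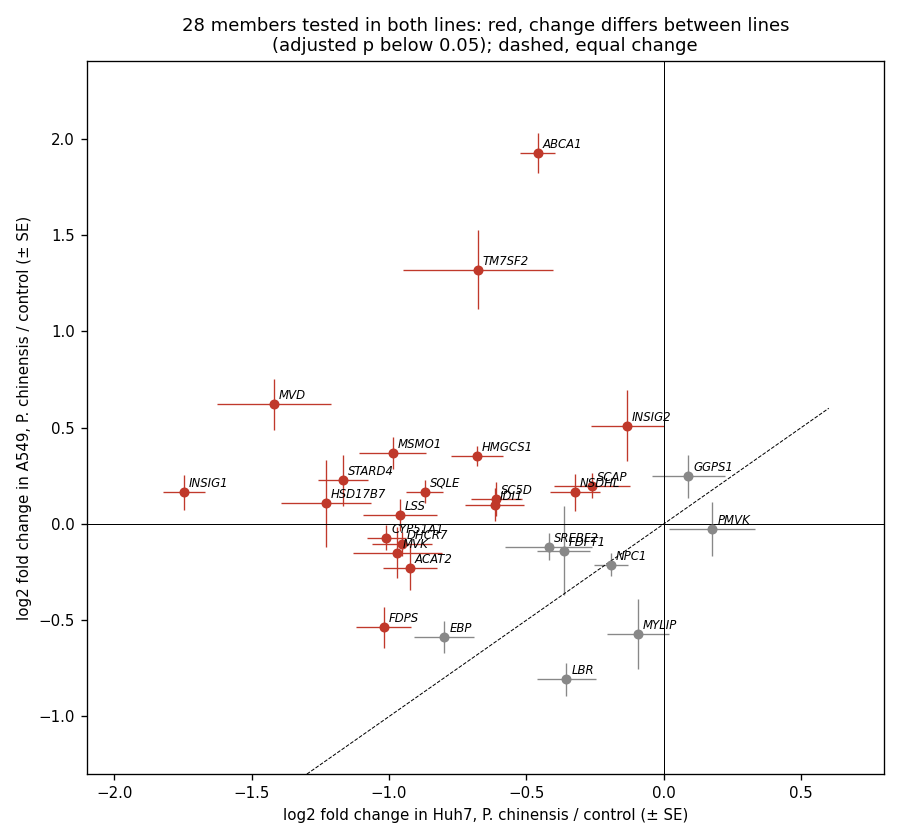
Log2 fold change with P. chinensis against control in Huh7 (x axis) and A549 (y axis) for the 28 members tested in both lines, with bars for 1 SE, red where the change differed between the lines and a dashed line at equal change. Most points lie left of 0 and above the dashed line, with ABCA1 at the top and INSIG1 furthest to the left.

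With B. chinense the change was higher in A549 for 6 members and lower for 2, against 5.8% of all genes in each direction. ABCA1 (1.58, SE 0.12, adjusted p = 5.31e-08), MVD (0.86, SE 0.27, adjusted p = 0.0427) and INSIG1 (0.63, SE 0.12, adjusted p = 0.000863) led the higher ones, and LBR and NPC1 were the lower ones. Of 21 alternatives, 10 lost the call of MVD (adjusted p up to 0.112), 12 that of MSMO1 (up to 0.111), 14 that of LBR (up to 0.144), 10 that of NPC1 (up to 0.0955) and 2 that of SQLE (up to 0.068). The higher count was 3 without Huh7 B. chinense replicate 2 or Huh7 control replicate 3, and the lower count was 0 or 1 without any one of the 12 libraries used. With P. umbellatus the change was higher in A549 for 13 members and lower for 2, against 19.1% and 15.3% of all genes, and for 14 and 2 without Huh7 P. umbellatus replicate 2. TM7SF2 (2.09, SE 0.37, adjusted p = 0.00027), MVD (1.95, SE 0.27, adjusted p = 2.3e-05) and ABCA1 (1.81, SE 0.12, adjusted p = 5.98e-09) differed most, and LBR and NPC1 were again lower. The higher count was 10 to 14 when 1 library was left out. Of 20 alternatives, 14 lost the call of SC5D (adjusted p up to 0.189), 10 that of MSMO1 (up to 0.155) and 6 that of HMGCS1 (up to 0.132).

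The untreated lines themselves differed in these genes. In controls 23 of 28 members were lower in A549 than in Huh7 and 2 were higher, against 34.9% and 33.8% of all genes, with a median log2 difference of −1.38. MVD (−3.13, SE 0.20, adjusted p = 3.44e-12), ABCA1 (−2.71, SE 0.09, adjusted p = 8.12e-17) and ACAT2 (−2.28, SE 0.11, adjusted p = 3.39e-14) were furthest below. NPC1 (0.47, SE 0.06, adjusted p = 2.06e-07) and NSDHL (0.24, SE 0.09, adjusted p = 0.0245) were higher in A549, NSDHL not without A549 control replicate 3 (adjusted p = 0.198) or Huh7 control replicate 1 (adjusted p = 0.0507).

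Levels between genes were compared per length, as CPM per kb of the canonical transcript. EBP stood highest in both lines, at 303 ± 9.18 (SD, n = 3) CPM per kb in Huh7 and 73.9 ± 5.48 in A549. In Huh7 it was followed by CYP51A1 (203 ± 1.13), DHCR7 (177 ± 0.564), HMGCS1 (168 ± 3.18) and ACAT2 (144 ± 3.50), and none of these neighbours overlapped. EBP and CYP51A1 overlap exons of other protein-coding genes on the same strand, which could add to their levels. In A549 CYP51A1 (58.5 ± 3.21), SQLE (54.6 ± 1.24), DHCR7 (52.6 ± 2.14) and LBR (51.9 ± 1.33) followed with overlapping ranges.

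The lowest in Huh7 were HSD17B7 (9.50 ± 0.932), INSIG2 (7.07 ± 0.294) and MYLIP (5 ± 0.504), and in A549 MYLIP (3.87 ± 0.416), TM7SF2 (3.70 ± 0.624) and NPC1L1 (0.0361 ± 0.0153). Neighbours in the order overlapped in 10 of 28 pairs in Huh7 and in 19 of 28 in A549. Among the regulators INSIG1 stood at 71.9 ± 1.5 CPM per kb and INSIG2 at 7.07 in Huh7, against 18.9 ± 1.54 and 4.45 ± 1.19 in A549.

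**Figure D5:**
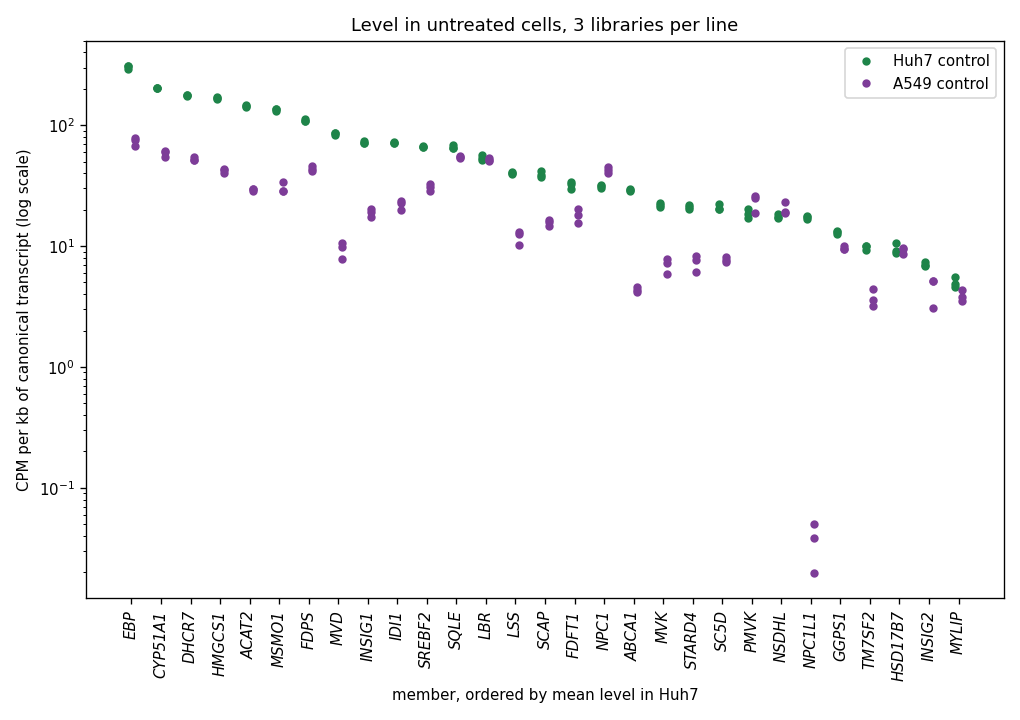
Level of each of the 29 members in untreated cells as CPM per kb of canonical transcript (log y axis), 3 control libraries per line as points, ordered by the mean in Huh7. Huh7 points stand above A549 points for most members, and NPC1L1 in A549 is lowest, at 0.0197 to 0.05.

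Other genes of sterol regulation were taken from lists written from general knowledge. Of 10 tested genes of the SREBP processing and sterol degradation machinery, 2 rose and 1 fell in Huh7 under P. chinensis, 0 and 0 under B. chinense (2 and 0 at an unadjusted p below 0.05) and 5 and 1 with P. umbellatus. In A549 the counts were 2 and 2, 2 and 2, and 3 and 1. Over all genes the shares that rose and fell in Huh7 were 10.5% and 10.5%, 0.519% and 0.757%, and 19.3% and 17.8%, and in A549 15.8% and 17.1%, 13.1% and 15.0%, and 13.4% and 14.8%, in the same order of herbs. The A549 counts of 1 to 3 of 10 lay near those shares. SREBF1, the paralog that drives fatty acid synthesis, fell in Huh7 with P. chinensis (−0.98, SE 0.20, adjusted p = 0.00402) and P. umbellatus (−1.08, SE 0.20, adjusted p = 0.00255). In A549 SREBF1 fell with all 3 herbs (log2 changes of −0.91, −0.79 and −0.46). SPRING1, which is needed for SREBP cleavage, rose in the same 5 comparisons, by 0.66 and 0.50 in Huh7 and by 0.28, 0.35 and 0.23 in A549.

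Of 9 tested genes of intracellular sterol handling in Huh7, 1 rose and 4 fell under P. chinensis, 0 and 1 under B. chinense, and 1 and 3 under P. umbellatus. Of 10 in A549, 2 rose and 2 fell under P. chinensis and likewise under B. chinense, and 1 and 2 under P. umbellatus. The 4 of 9 that fell in Huh7 under P. chinensis compare with 10.5% of all genes, the 1 under B. chinense with 0.757% and the 3 under P. umbellatus with 17.8%. The A549 counts compare with 13.1% to 17.1%. TMEM97, a binding partner of NPC1, fell in all 6 comparisons with control, by −0.84, −0.34 and −0.24 in Huh7 and by −0.77, −0.59 and −0.67 in A549. SOAT2, which esterifies cholesterol in liver cells, fell in Huh7 with P. chinensis (−0.65, SE 0.16, adjusted p = 0.0134) and P. umbellatus (−0.89, SE 0.17, adjusted p = 0.00291). LIPA, the lysosomal lipase that frees cholesterol from esters, rose in A549 by 0.48, 0.40 and 0.36 and fell in Huh7 with P. chinensis (−0.28, SE 0.08, adjusted p = 0.0264).

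Of 4 genes of sterol efflux and LXR signalling, 1 fell in Huh7 with P. chinensis, SCARB1, the lipoprotein receptor (−0.79, SE 0.10, adjusted p = 0.000199), and 1 with P. umbellatus, NR1H2, which encodes an LXR (−0.83, SE 0.19, adjusted p = 0.00645). In A549 SCARB1 rose with B. chinense (0.26, SE 0.09, adjusted p = 0.0363), and 0 of these genes were called with the other two herbs, where 1 had an unadjusted p below 0.05 with P. umbellatus and 0 with P. chinensis. Of 10 enzymes that use isoprenoid diphosphates for other products, 2 rose and 4 fell in A549 under P. chinensis, 0 and 4 under B. chinense and 1 and 3 under P. umbellatus, COQ2, an enzyme of ubiquinone synthesis, falling by −0.78, −0.71 and −0.67. Of all genes 15.8%, 13.1% and 13.4% rose there and 17.1%, 15.0% and 14.8% fell. In Huh7 the counts were 0 and 2, 0 and 0, and 2 and 0. Of all genes 10.5%, 0.519% and 19.3% rose in Huh7 and 10.5%, 0.757% and 17.8% fell. The 2 of 10 that rose with P. umbellatus were close to that share.

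The summed hepatocyte markers were lower under each herb in Huh7, as the members were. Their sum over 6 genes was 9790 to 10000 CPM in controls, 6850 to 7100 under P. chinensis, 8450 to 8530 under B. chinense and 7150 to 9350 under P. umbellatus. With P. chinensis 3 of the 6 fell, ALB by −0.69, SERPINA1 by −0.38 and TF by −0.48, and FGB rose by 0.69, where 10.5% of all genes fell and 10.5% rose. With B. chinense 0 of the 6 fell and FGB rose (0.43, SE 0.08, adjusted p = 0.0201), and with P. umbellatus TTR, SERPINA1 and TF fell and FGB rose.

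Other marker lists moved too. Fibroblast markers in Huh7 summed to at most 14.3 CPM in controls and 13.6 under B. chinense, to 18.6 to 27.3 under P. chinensis, and to as little as 6.53 under P. umbellatus. COL1A1 (to 401.2% of control, adjusted p = 0.0368) and COL1A2 (to 246.0%, adjusted p = 0.00205), both collagen chains, rose with P. chinensis, as 2 of the 4 tested, where 10.5% of all genes rose. PDGFRB fell with P. umbellatus (−1.29, SE 0.38, adjusted p = 0.0215), where 17.8% of all genes fell. Epithelial markers in Huh7 summed to 4080 to 4320 CPM in controls, 5210 to 5470 under P. chinensis, 4260 to 4530 under B. chinense and 2440 to 3720 under P. umbellatus. Of the 4 tested, KRT18 rose with P. chinensis and CDH1 fell with all 3 herbs. Of all genes 10.5% rose with P. chinensis, and 10.5%, 0.757% and 17.8% fell with the herbs in turn.

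In A549 the epithelial sum was 7430 to 8010 CPM in controls and 6790 to 7680 under the herbs. Of the 5 genes 2 fell under P. chinensis, 2 under B. chinense and 4 under P. umbellatus, where 17.1%, 15.0% and 14.8% of all genes fell. KRT18 and CDH1 fell with each herb, and KRT8 and EPCAM with P. umbellatus. The part of these markers in the members' change was not tested, nor was that of the differing depth of the libraries.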

How the data were processed

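RNA of 24 libraries was prepared with a stranded total RNA kit after removal of ribosomal RNA. The authors ran kallisto on the Ensembl transcripts of GRCh38.p13 and filtered for protein-coding genes whose mean count exceeded 5. The values deposited are estimated counts per gene, rounded and not normalized. How transcripts were summed, and the strand setting, are not given in the sources used here. Kallisto divides reads that fit several transcripts, so overlapping genes and pseudogenes can exchange counts.

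Genes were matched to symbols, positions and transcript lengths of GENCODE v44, and 14584 protein-coding genes were used. For each line, genes with a mean above 5 counts over its 12 libraries were normalized by TMM and fitted in edgeR 4.0.16 (R 4.3.3) by a quasi-likelihood model (1 coefficient for each group, prior count 2). Tests were two-sided and adjusted by Benjamini-Hochberg over all genes tested. Differences between lines were tested by a model of the 24 libraries together, for the 12924 genes that passed the filter in both. Marker sums and CPM per kb used TMM factors of all 24 libraries over all genes used. Precision is given as a standard error, computed from the log2 fold change and the F statistic of the test. It rests on a spread between replicates that is shared by all groups fitted. Depth was 6803704 to 24345541 counts.

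The members and gene lists were chosen with earlier results of these data known. Library values are given for the 12 members called in most of the 6 comparisons with control, for SREBF2 and SCAP, and for members at 3 counts or less throughout a line. Those of HMGCS1, MVD, NPC1L1, STARD4, HSD17B7 and MYLIP were added after their values were seen, as were HMGCS1, MVD, LSS, STARD4 and NPC1L1 in the plots by library. The alternatives were other normalizations, DESeq2 1.42.0, voom of limma 3.58.1 with quality weights, other filters, the replicate number as a block, only the groups compared and leaving out each library. A fit without P. umbellatus replicate 2 of Huh7 was added after seeing the data. The steps were tested on simulated data.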

Additional observations from a re-analysis of the deposited data

Results flagged for a closer look

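A total of 43 member changes differed between A549 and Huh7 in the interaction test of edgeR's quasi-likelihood model, adjusted over 12924 genes. Differences are log2 fold changes against control in A549 minus those in Huh7. Groups of 3 were too small for the test of single libraries, so no value was singled out within a group.

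With P. chinensis, 20 members answered differently. HMGCS1 (difference 1.08), MVD (2.09), SQLE (1.09), MSMO1 (1.41) and ABCA1 (2.44) were called in opposite directions, higher in A549 and lower in Huh7. The A549 rise of SQLE was small, overlapped the controls and lost its call in 7 of 14 alternatives. FDPS fell in both lines, by 0.54 less in A549. TM7SF2 (2.05), SCAP (0.51) and INSIG2 (0.70) were called higher in A549 and were not called in Huh7. In Huh7 the P. chinensis libraries of TM7SF2 and SCAP still lay below the controls. The differences of SCAP and INSIG2 lost their call in 7 and 9 of 21 alternatives. The others were called lower in Huh7 and passed no test in A549. These were ACAT2 (0.75), MVK (0.87) and IDI1 (0.77) of the early enzymes. LSS (1.06), CYP51A1 (0.99), NSDHL (0.54), HSD17B7 (1.38), SC5D (0.79) and DHCR7 (0.90) followed among the sterol enzymes, with INSIG1 (1.96) and STARD4 (1.45) among the rest.

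With B. chinense, 8 members differed between the lines. HMGCS1 (0.48), MVD (0.86), SQLE (0.33), MSMO1 (0.48), INSIG1 (0.63) and ABCA1 (1.58) were higher in A549 relative to Huh7, and LBR (−0.45) and NPC1 (−0.27) were lower. The calls of MVD, MSMO1, LBR and NPC1 were lost in 10, 12, 14 and 10 of 21 alternatives.

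With P. umbellatus, 15 members differed between the lines. MVD (1.95), MVK (0.96), HMGCS1 (0.35), SQLE (0.36), LSS (0.90), TM7SF2 (2.09), MSMO1 (0.45), SC5D (0.34) and DHCR7 (0.51) were the enzymes with a higher change in A549. The calls of SC5D, MSMO1 and HMGCS1 were lost in 14, 10 and 6 of 20 alternatives. SREBF2 (0.73), SCAP (0.81), INSIG1 (0.51) and ABCA1 (1.81) were higher too, and LBR (−0.81) and NPC1 (−0.32) were lower.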

How the results depend on the processing

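Of 3098 values that 196 called member changes took under the alternatives, 2767 kept their direction and their call, 331 kept the direction without passing the test, and 0 reversed. The medians also kept their sign in 101 of 101 alternatives. Upper quartile normalization gave a median of 0.17 for P. chinensis and −0.057 for P. umbellatus in A549 and of −1.312 between the controls, 5 members higher with B. chinense in A549, and 7 higher for P. chinensis against P. umbellatus there. DESeq2 gave 8 members lower with B. chinense in Huh7, and in A549 2 and 8 higher for P. chinensis against B. chinense and P. umbellatus and 1 lower for B. chinense against P. umbellatus. Voom gave 17 lower with B. chinense in Huh7, a median of −0.413 with P. umbellatus, 0 higher for P. chinensis against P. umbellatus and 2 lower for B. chinense against P. umbellatus. Fitting only the groups compared gave 17 lower with B. chinense, 10 lower and 0 higher with P. umbellatus, 0 higher for P. chinensis against P. umbellatus, and 0 higher and 0 lower for B. chinense against P. umbellatus in Huh7. In A549 it gave 5 higher with P. chinensis, and 0 and 2 higher for P. chinensis against B. chinense and P. umbellatus. Leaving P. umbellatus replicate 2 of Huh7 out of the fit gave 14 lower with B. chinense. The P. chinensis response was lower in A549 than in Huh7 for 1 member under upper quartile factors, DESeq2, voom, the filter above 20 counts, the groups compared alone and the fit without that library. For B. chinense this count was 1 with RLE factors and 0 without a filter. Apart from those that follow from fewer libraries, the cause of these differences was not tested.

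Leaving out 1 library gave, in A549, 5 to 8 members higher and 3 to 5 lower with P. chinensis, a median of −0.146 to −0.073 with P. umbellatus, and 0 to 2 and 1 to 4 higher for P. chinensis against B. chinense and P. umbellatus. In Huh7 it gave medians of −0.823 to −0.672, −0.289 to −0.178 and −0.429 to −0.322 for P. chinensis, B. chinense and P. umbellatus. It also gave 18 to 19 members lower with P. chinensis, 1 to 3 lower with B. chinense, and 12 to 20 lower and 1 to 4 higher with P. umbellatus. Between herbs in Huh7 it gave 8 to 13 lower for P. chinensis against B. chinense, 0 to 6 higher for P. chinensis against P. umbellatus, and 5 to 11 higher and 0 to 5 lower for B. chinense against P. umbellatus. Between lines it gave 17 to 20 higher and 0 to 1 lower for P. chinensis, 3 to 6 higher and 0 to 1 lower for B. chinense, and 1 to 3 higher in A549 controls. Where a group had a pair of libraries left, their spread was pooled with that of the other groups.

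The replicate numbers did not pair the samples: over 36 pairs of groups and numbers the correlation of deviations from the group means ran from −0.0607 to 0.0663. With the replicate number as a block, 183 of 196 member changes kept their call, P. chinensis was higher than B. chinense for 0 members and than P. umbellatus for 1 in A549, and the B. chinense response was lower in A549 for 1.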
